A study of Mus musculus with 9 samples.

Results

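The genes described here are 34 mouse genes of fatty acid, triglyceride and phospholipid synthesis, with the transcription factors that drive them. They were chosen by symbol from the 54838 genes of the deposited expression matrix, and all 34 were found there. The matrix comes from RNA sequencing of corona radiata cells, the innermost granulosa-derived cells around the ovulated oocyte, taken from adult mice after induction with PMSG and hCG, gonadotropins that drive follicle growth and trigger ovulation. There were 9 libraries, 3 of each of 3 genotypes: wild type (WT), mice lacking both liver X receptors (DKO LXR, a double knockout, written LXR DKO), and DKO LXR mice that also carry TG-AMH-LXRb (called transgenic). The transgenic mice thus share the double knockout with the LXR DKO mice. All groups had the same hormone treatment, to which the labels add the unexplained term J4. The sources used here do not give the promoter and coding sequence of the transgene, the deleted parts of the receptor genes, or whether libraries came from separate or pooled animals. Values for 3 libraries are listed in the order of their numbers, 1 to 3. P-values therefore measure the spread between these libraries, which may be technical.

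Liver X receptors (LXRs) are nuclear receptors that bind oxysterols and pair with RXR on DNA. In liver they are best known for switching on fatty acid synthesis, largely by inducing Srebf1, whose product SREBP1c then activates the genes of the synthetic enzymes. Fatty acids are built from acetyl-CoA by acetyl-CoA carboxylase and fatty acid synthase, lengthened by elongases, desaturated by the SCD and FADS enzymes, activated by acyl-CoA synthetases, and joined to glycerol by acyltransferases. Cumulus and corona cells feed the oocyte with metabolites and have lipid droplets of their own, and fatty acid metabolism in the cumulus-oocyte complex is linked to oocyte maturation.

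Promoter sequence from RefSeq (GRCm38.p6, the assembly also named mm10) was available for 29 of the 34 members as windows of 300 bases, 250 before and 50 after a transcript start. Srebf1 and Fasn are shown first because their promoters hold LXR elements known from liver. The capitals mark the reverse complement of GGGTTA and CGGTCA with any 4 bases between them, searched on both strands. The Srebf1 window (chr11:60210422-60210721, minus strand) is 1 of 3 Srebf1 windows in the table, and the Fasn window is chr11:120824498-120824797, minus strand.
Srebf1: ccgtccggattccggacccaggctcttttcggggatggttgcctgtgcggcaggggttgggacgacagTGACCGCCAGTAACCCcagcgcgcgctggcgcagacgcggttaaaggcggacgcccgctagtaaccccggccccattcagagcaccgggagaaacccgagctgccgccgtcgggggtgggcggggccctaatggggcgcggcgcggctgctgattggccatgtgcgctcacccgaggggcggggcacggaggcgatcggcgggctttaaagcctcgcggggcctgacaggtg
Fasn: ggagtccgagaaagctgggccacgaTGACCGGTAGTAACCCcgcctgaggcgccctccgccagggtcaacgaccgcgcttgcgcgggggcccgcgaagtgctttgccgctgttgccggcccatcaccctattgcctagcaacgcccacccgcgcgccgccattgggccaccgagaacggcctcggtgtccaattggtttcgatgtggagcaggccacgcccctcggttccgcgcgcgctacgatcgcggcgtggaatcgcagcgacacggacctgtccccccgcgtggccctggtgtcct

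Read on the other strand, the Srebf1 match is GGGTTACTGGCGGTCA and the Fasn match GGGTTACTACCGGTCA. These letters were written from the known Srebf1 element, so the matches are a description and not a search result: 3 of all 32851 windows (0.00913%) hold them, and 2 of the 3 are these. The windows of Acsl3 (chr1:78657575-78657874, plus strand) and Lpcat3 (chr6:124662854-124663153, plus strand), a member that fell and a known LXR target that rose in LXR DKO, do not hold these letters. Their capitals mark CCAAT, the box bound by NF-Y, a factor that acts with SREBPs, or its reverse complement.
Acsl3: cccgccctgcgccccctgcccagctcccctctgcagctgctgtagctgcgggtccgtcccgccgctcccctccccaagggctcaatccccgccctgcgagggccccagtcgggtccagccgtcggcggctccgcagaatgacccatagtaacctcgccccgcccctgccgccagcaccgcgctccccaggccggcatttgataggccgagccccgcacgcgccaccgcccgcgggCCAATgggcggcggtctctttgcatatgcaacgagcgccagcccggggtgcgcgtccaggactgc
Lpcat3: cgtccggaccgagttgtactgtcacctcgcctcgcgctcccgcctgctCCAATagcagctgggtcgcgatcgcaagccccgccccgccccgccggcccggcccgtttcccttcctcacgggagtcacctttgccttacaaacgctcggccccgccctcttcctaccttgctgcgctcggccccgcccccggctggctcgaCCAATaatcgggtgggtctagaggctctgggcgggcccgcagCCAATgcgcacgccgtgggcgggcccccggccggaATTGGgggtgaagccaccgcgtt

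CCAAT on either strand stood in 37.4% of all windows and in 20 of 39 member windows, 1 time in the Acsl3 window and 4 times in the Lpcat3 window. The Srebf1 and Fasn windows printed above also hold it, not marked by capitals there. The core of the sterol regulatory element, TCACNCCAC, stood in 1.24% of all windows and in 1 member window, that of Mlxipl. The E-box CACGTG stood in 7.15% of all windows and in 4 member windows (Elovl5, Lpin2, Lpin3 and Mlxipl). The LXR consensus, AGGTCA repeated with any 4 bases between, stood in 0.0152% of all windows and in no member window. A missing match says only that the letters are not in these windows.

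Values are RPKM, reads scaled by gene length and sequencing depth, as the authors deposited them. Levels can be compared between genes only approximately, as the gene lengths the authors used are not given. For Scd1, Fads1, Fads2 and Fads3 those lengths differ from the annotation at hand. The targeted genes were low in both knockout groups: Nr1h2 (LXR beta) gave 39.7 to 45.7 RPKM (WT), 2.85 to 3.57 (LXR DKO) and 4.83 to 6.70 (transgenic), and Nr1h3 (LXR alpha) 3.50 to 5.72, 0.713 to 1.08 and 0.395 to 0.819. Because the deleted parts are not known, these reads check the knockouts only in part. Read numbers worked back from the RPKM values gave 30857507 to 45889381 reads in genes per library.

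RNA of cells other than the corona was present, and it differed between libraries. In bulk RNA, fewer cells of a type and less RNA per cell cannot be told apart. Of 15 granulosa and cumulus markers, 13 to 15 were at 1 RPKM or more in each library, and their sum was 2596 to 2971 RPKM (WT), 2170 to 2585 (LXR DKO) and 2087 to 2294 (transgenic). The 15 oocyte markers reached sums of 1080 RPKM (WT 1) and 549 (LXR DKO 1), beside 18.5 to 77.7 for the other 7 libraries. Tle6 alone gave 11.6 to 21.3 RPKM in those 7, and 65.5 (WT 1) and 21.7 (LXR DKO 1). The 12 oviduct epithelium markers summed to 449, 395 and 2084 RPKM (WT), to 593 to 1107 (LXR DKO) and 1863 to 2492 (transgenic). The 14 macrophage markers summed to 634 to 1461, 747 to 1433 and 450.5 to 649 RPKM in WT, LXR DKO and transgenic libraries, and the 7 erythroid markers reached 9881 RPKM in WT 3 against at most 971 elsewhere. The 6 neutrophil markers summed to 17.9 to 75.8, 31.7 to 48.7 and 7.84 to 15.6 RPKM in the same order, of which Mmp9 gave 13.3 to 74.4, 16.9 to 41.1 and 6.60 to 13.6. Adipocyte markers were near 0: all 10 together summed to 0.722 to 3.75 RPKM per library, the lipid droplet gene Plin1 was at most 0.0195, and Cidec and Cfd were at 0 in all 3 LXR DKO libraries. The 5 theca markers summed to 4.09 to 7.77 RPKM.

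Over all 9 libraries Scd2 was the most abundant member, with a mean of 268 RPKM, followed by the malic enzyme gene Me1 (259), the ATP-citrate lyase gene Acly (180), Acsl4 (148), Gpam (103) and Lpcat3 (100.3). Scd2 was above Me1 only in WT (means of 378 and 206 RPKM). Me1 was above Scd2 in LXR DKO (275 and 206) and transgenic libraries (296 and 220). These 6 members had means above 100 RPKM and 23 had means of at least 10. Other genes were low: the acetyl-CoA carboxylase genes Acaca and Acacb had means of 1.18 and 1.32 RPKM and the acetyl-CoA synthetase gene Acss2 2.61. The gene of the transcription factor ChREBP, Mlxipl, had a mean of 0.523. Fasn stood at 15.04 RPKM. RNA for citrate cleavage, NADPH supply and desaturation was thus abundant, and RNA for malonyl-CoA formation scarce.

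Members were tested with limma on log2(RPKM + 1), and changes are log2 fold changes ± SE on that scale, which understates changes of low genes. Adjusted p-values are Benjamini-Hochberg values across the 16422 genes with at least 1 RPKM in 3 or more libraries, with a threshold of 0.05. Of the 34 members, 32 passed that filter. Pnpla3 and Mlxipl did not. In LXR DKO against WT, 4 of the 32 rose (Lpcat3, Fads3, Elovl7 and Fads1), against a background of 3.47% of all genes tested, and 2 fell (Acsl3 and Scd2), against 7.12%. The remaining 26 did not pass. The median change of the 32 members was 0.19, beside 0.017 for all genes tested. Values were above 0 for 24 of the 32 (75.0%), beside 52.5% of all genes tested. WT 3 was the lowest library for 16 of the 34 members, so these signs were not independent of one another. At an unadjusted p under 0.05 there were 14 of the 32 (43.75%), beside 26.5% of all genes tested. All 3 LXR DKO libraries lay above all 3 WT libraries for 8 members (background 13.1%) and below them for 4 (background 15.9%).

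**Figure D1:**
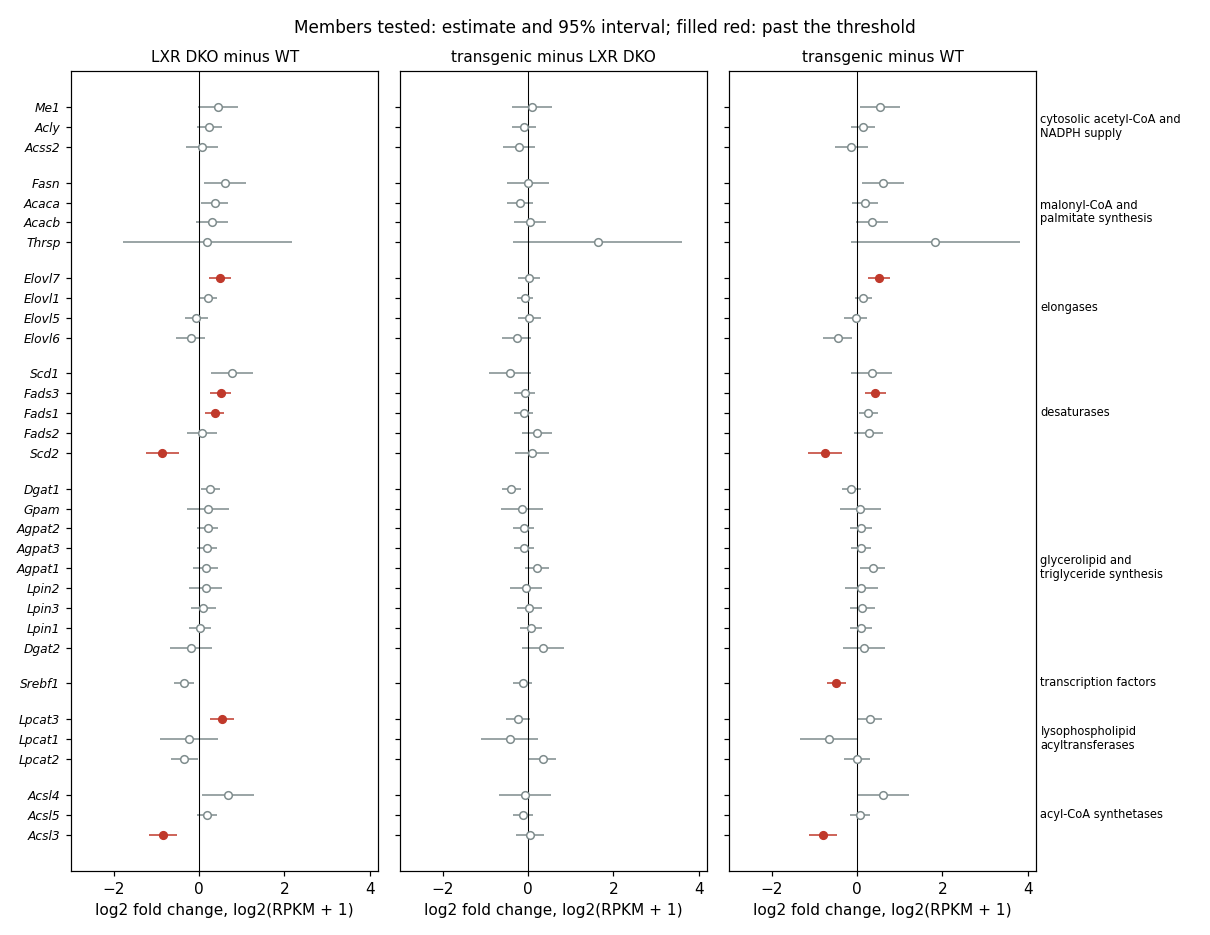
Log2 fold change (horizontal axis, log2(RPKM + 1) scale) of the 32 members tested, by role, in the 3 comparisons; points are limma estimates, lines 95% intervals, filled red points are past the adjusted threshold. In LXR DKO minus WT 4 members are filled on the right and 2 on the left, and in transgenic minus LXR DKO none is filled.

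Among members that fell, the lowest adjusted p was that of a gene for the activation of fatty acids to acyl-CoA. Acsl3 (ENSMUSG00000032883, mm10 chromosome 1, 78657825 to 78707743, plus strand) encodes an acyl-CoA synthetase of the endoplasmic reticulum and lipid droplets. It gave 13.3, 15.5 and 13.1 RPKM (WT), 8.67, 6.22 and 7.06 (LXR DKO) and 8.80, 7.72 and 6.32 (transgenic). Every WT library lay above every library of the other genotypes, and those 2 groups overlapped. In LXR DKO, Acsl3 fell by 0.85 ± 0.14 (13.9 ± 1.35 to 7.32 ± 1.25 RPKM, SD, n = 3, limma adjusted p = 0.00885), 0.525 times the WT mean. The call held under all 18 alternatives, leaving out each library included (adjusted p up to 0.0426). Of its exonic bases, 5.60% also lie in exons of Utp14b on the same strand, and reads there could be counted in either gene.

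The other acyl-CoA synthetase genes did not pass. Acsl4, which prefers arachidonate, had means of 110 ± 37.4 (WT) and 172 ± 42.7 RPKM (LXR DKO; SD, n = 3, 0.68 ± 0.27, limma adjusted p = 0.151), with the lowest value, 71.8, in WT 3. Acsl5 differed by 0.19 ± 0.10 (adjusted p = 0.279). Acsl3 thus made up 8.11%, 7.85% and 10.97% (WT), 4.67%, 2.89% and 2.67% (LXR DKO), and 3.90%, 3.41% and 3.65% (transgenic) of the summed RPKM of the 3 genes. This share was chosen after the values were seen and has no test.

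The stearoyl-CoA desaturases place the first double bond in saturated fatty acids, and their 2 main genes lay on opposite sides of WT. Scd2 (ENSMUSG00000025203, chromosome 19, 44293674 to 44306864, plus strand) gave 395, 451 and 287 RPKM (WT), 203, 175 and 240 (LXR DKO) and 215, 234 and 209 (transgenic), so that no knockout library reached the lowest WT library. In LXR DKO it fell by 0.86 ± 0.17 (limma adjusted p = 0.018), 0.546 times the WT mean. That call was lost without WT 1, WT 2 or LXR DKO 2 (adjusted p = 0.0574, 0.0516 and 0.0648) and without the oocyte-containing pair WT 1 and LXR DKO 1 (0.0901), with changes from -1.04 to -0.72 when single libraries were left out. Scd1 (ENSMUSG00000037071, chromosome 19, 44394455 to 44407879, minus strand) gave 17.6, 19.8 and 10.9 RPKM (WT), 24.6, 24.7 and 33.8 (LXR DKO) and 18.9, 23.4 and 18.4 (transgenic). Every LXR DKO library was above every WT library, but the difference of 0.77 ± 0.21 missed the threshold (adjusted p = 0.0535). It passed under 4 alternatives, for example with a stricter filter (0.0414) or without WT 2 (0.0482), and not without LXR DKO 3 (0.62, adjusted p = 0.182).

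Of the summed Scd1 and Scd2 RPKM, Scd1 gave 4.27%, 4.203% and 3.67% (WT), 10.8%, 12.3% and 12.4% (LXR DKO), and 8.08%, 9.07% and 8.10% (transgenic). The 3 genotypes did not overlap on this share, with means of 4.05% ± 0.330, 11.8% ± 0.889 and 8.42% ± 0.567 (SD, n = 3). The share was chosen after the values were seen, so it carries no test, and its size rests on the gene lengths the authors used, which for Scd1 differ from the annotation at hand. The related genes Scd3 and Scd4 kept a narrow ratio to Scd2. Scd3 stood at 1.66% to 2.03% and Scd4 at 0.722% to 0.937% of the Scd2 value in every library. Scd3, at 6.70 ± 1.43 RPKM in WT and 3.99 ± 0.916 in LXR DKO, missed the threshold (limma adjusted p = 0.0507). Reads of related genes can be assigned to the wrong gene. Whether that happened here was not measured, so the levels of Scd3 and Scd4 are uncertain.

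**Figure D2:**
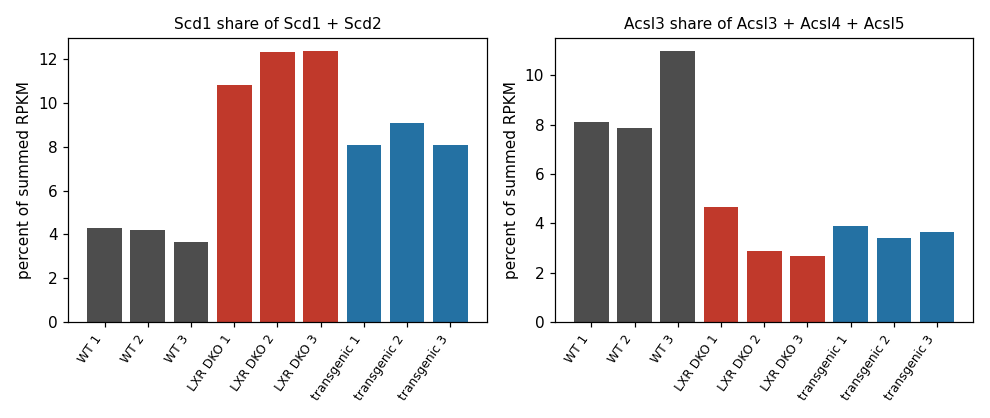
Left, Scd1 as a percent of the summed RPKM of Scd1 and Scd2 in each library; right, Acsl3 as a percent of the summed RPKM of Acsl3, Acsl4 and Acsl5; 1 bar per library, axes from 0. Scd1 shares lie between 3.67% and 4.27% in WT, 8.08% and 9.07% in transgenic and 10.8% and 12.4% in LXR DKO libraries.

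The enzymes FADS1 and FADS2 make polyunsaturated fatty acids. Of the 3 FADS genes, Fads1 and Fads3 rose in LXR DKO and Fads2 did not pass. Fads3, whose product acts on sphingoid bases, gave 20.9, 16.9 and 20.1 RPKM (WT), 31.5, 24.6 and 27.5 (LXR DKO) and 26.9, 25.5 and 26.4 (transgenic), with all knockout libraries above all WT libraries. It rose by 0.51 ± 0.11 (limma adjusted p = 0.0231). Without WT 2 (0.0647), LXR DKO 3 (0.0777) or both WT 1 and LXR DKO 1 (0.053), it no longer passed. Fads1, the delta-5 desaturase gene, gave 53.0, 52.4 and 51.8 RPKM (WT), 65.1, 61.0 and 79.7 (LXR DKO) and 65.4, 61.9 and 62.5 (transgenic). It rose by 0.37 ± 0.10, with an adjusted p of 0.0466 that left the threshold when any library but LXR DKO 2 was left out (up to 0.106). The Fads1 call was lost in 13 of 18 alternatives, among them voom on reads worked back from the RPKM values. Fads2, the delta-6 desaturase gene beside Fads3, did not pass (17.6 ± 4.12 and 18.2 ± 2.19 RPKM, SD, n = 3, 0.07 ± 0.15, limma adjusted p = 0.831), with its highest value, 22.3 RPKM, in WT 3.

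Among elongases, which extend fatty acids by 2 carbons at a time, Elovl7 rose and the others did not pass. Elovl7 gave 12.9, 12.02 and 10.4 RPKM (WT), 18.7, 14.5 and 17.6 (LXR DKO) and 18.3, 17.1 and 16.1 (transgenic), and all knockout libraries were above all WT libraries. The change of 0.49 ± 0.12 in LXR DKO (limma adjusted p = 0.0311) left the threshold without WT 2, WT 3, LXR DKO 1, LXR DKO 3, transgenic 1 or transgenic 2 (up to 0.113) and without both WT 1 and LXR DKO 1 (0.0751). Elovl6, the SREBP1c target that makes stearate from palmitate, had means of 17.8 ± 3.84, 15.3 ± 1.41 and 12.6 ± 0.813 RPKM in WT, LXR DKO and transgenic libraries, in that order. Its change in LXR DKO was -0.19 ± 0.15 (adjusted p = 0.473). Elovl1 and Elovl5 differed by 0.22 and -0.06, neither past the threshold.

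The LXR target Srebf1 (ENSMUSG00000020538, chromosome 11, 60199089 to 60222581, minus strand) gave 30.6, 31.2 and 27.7 RPKM (WT), 26.7, 20.5 and 22.3 (LXR DKO) and 20.6, 21.3 and 21.2 (transgenic). All WT libraries were above all others, and the transgenic libraries lay close together. The change in LXR DKO, -0.36 ± 0.10, missed the threshold (limma adjusted p = 0.0563), 0.777 times the WT mean. It passed under 5 alternatives, among them leaving out WT 3 (0.0439), LXR DKO 1 (0.0145) or both WT 1 and LXR DKO 1 (0.0448). The gene-level values do not separate the Srebf1 transcripts for SREBP1a and SREBP1c, which start at different promoters. The glucose-sensing factor gene Mlxipl was too low to test. It gave 0.652, 0.468 and 0.468 RPKM (WT), 0.439, 0.874 and 0.492 (LXR DKO) and 0.425, 0.296 and 0.596 (transgenic), with overlap of all groups, which correspond to 51 to 162 reads per library.

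No gene of palmitate synthesis or of its supply of acetyl-CoA and NADPH passed in LXR DKO: 0 of 7 with limma and with voom, and 2 of 7 (Fasn and Acaca) at an unadjusted p under 0.05, a share near the 26.5% of all genes. Fasn (ENSMUSG00000025153, chromosome 11, 120805846 to 120824547, minus strand) gave 10.8, 14.6 and 7.74 RPKM (WT), 14.1, 17.4 and 19.7 (LXR DKO) and 15.2, 15.4 and 20.5 (transgenic). The ranges of WT and LXR DKO overlapped in 1 library each, and the change of 0.61 ± 0.22 did not pass (limma adjusted p = 0.111, 95% interval 0.12 to 1.10 before adjustment), except without WT 2 (0.82, adjusted p = 0.0495). Acaca, for the first committed step, gave 0.873, 1.09 and 0.769 RPKM (WT), 1.17, 1.71 and 1.504 (LXR DKO) and 0.952, 1.19 and 1.34 (transgenic). Its LXR DKO libraries were all above WT, with a change of 0.36 ± 0.14 that did not pass (adjusted p = 0.126). Acly gave 169, 182 and 141 RPKM (WT), 178, 178 and 228 (LXR DKO) and 182, 180 and 180 (transgenic), and its change of 0.24 ± 0.13 did not pass (adjusted p = 0.262). Me1, which supplies NADPH, went from 206 ± 54.5 to 275 ± 27.3 RPKM (SD, n = 3, 0.44 ± 0.21, limma adjusted p = 0.218). Acacb and Acss2 differed by 0.31 and 0.07, neither past the threshold.

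**Figure D3:**
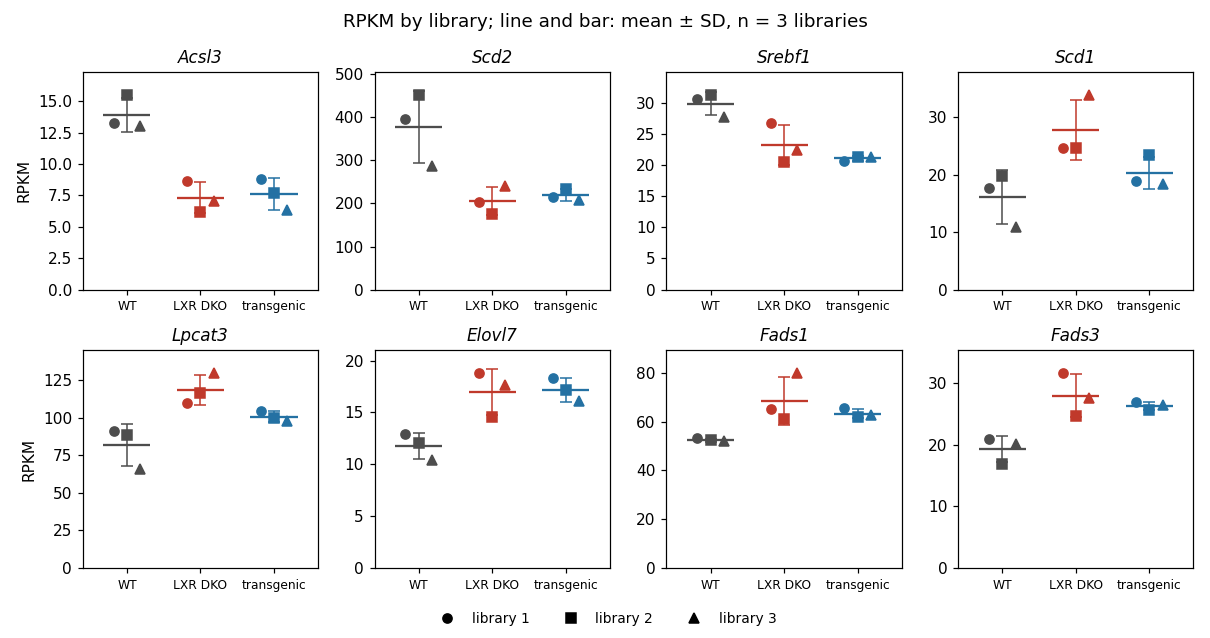
RPKM of 8 members in each of the 9 libraries (3 per genotype, symbols mark library 1, 2 and 3), with mean ± SD and axes from 0. Acsl3, Scd2 and Srebf1 are lower and Lpcat3, Elovl7, Fads1 and Fads3 higher in all knockout libraries than in all WT libraries, while Scd1 in transgenic libraries overlaps WT.

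Assembly of triglyceride, from glycerol phosphate through lysophosphatidate, phosphatidate and diacylglycerol, showed no member past the threshold: 0 of the 9 tested glycerolipid genes passed in LXR DKO with limma or voom, and 1 (Dgat1) had an unadjusted p under 0.05, beside 26.5% of all genes. Gpam, the mitochondrial acyltransferase gene of the first step, gave 104, 118 and 68.2 RPKM (WT), 93.6, 99.03 and 142 (LXR DKO) and 107, 95.8 and 95.9 (transgenic), with wide overlap (0.21 ± 0.21, adjusted p = 0.58). Dgat1, for the last step, gave 22.5, 22.5 and 19.6 RPKM (WT), 27.3, 27.9 and 23.1 (LXR DKO) and 19.9, 20.4 and 18.2 (transgenic). The LXR DKO libraries were the 3 highest, but neither their difference from WT (0.26 ± 0.10, adjusted p = 0.124) nor that of transgenic from LXR DKO (-0.40 ± 0.10, adjusted p = 0.27) passed. Dgat2, the other diacylglycerol acyltransferase gene, gave 7.91, 5.91 and 11.998 RPKM (WT), 6.95, 8.28 and 6.29 (LXR DKO) and 9.46, 10.99 and 7.97 (transgenic), with no separation of the groups (LXR DKO minus WT -0.19 ± 0.22, adjusted p = 0.635). The Agpat and Lpin genes differed by 0.03 (Lpin1) to 0.20 (Agpat2) in LXR DKO.

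The lysophospholipid acyltransferases remodel the acyl chains of phospholipids, and 1 of 3 genes rose. Lpcat3 (ENSMUSG00000004270, chromosome 6, 124663027 to 124704418, plus strand), whose product adds polyunsaturated chains to lysophosphatidylcholine and which LXR agonists induce in liver, gave 91.2, 88.5 and 66.0 RPKM (WT), 110, 116 and 129 (LXR DKO) and 104, 99.7 and 97.7 (transgenic). All knockout libraries were above all WT libraries and all LXR DKO libraries above all transgenic libraries. Lpcat3 rose in LXR DKO by 0.54 ± 0.13 (limma adjusted p = 0.0308). It was not past the threshold when LXR DKO 2 (0.0828), LXR DKO 3 (0.117) or 1 of the transgenic libraries (0.0513 to 0.0542) was left out, and held without both WT 1 and LXR DKO 1 (0.68, adjusted p = 0.0442). Of its exonic bases, 10.2% lie in exons of Emg1 on the opposite strand, and without a stated strand setting those reads cannot be told apart. Lpcat2, an enzyme gene of inflammatory cells that makes platelet-activating factor, gave 6.20 to 8.83 RPKM (WT), 5.09 to 5.58 (LXR DKO) and 6.29 to 8.16 (transgenic), and its change of -0.34 ± 0.14 did not pass (adjusted p = 0.151).

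The transgenic libraries were compared with LXR DKO, which lack the transgene. Nr1h2 differed by 0.66 ± 0.12 (limma adjusted p = 0.129), with means of 3.15 (LXR DKO), 5.60 (transgenic) and 41.7 RPKM (WT). The coding sequence of the transgene is not given, so these reads may not count it. Oviduct epithelium sums also differed, at 593 to 1107 RPKM (LXR DKO) and 1863 to 2492 (transgenic). So did macrophage sums, at 747 to 1433 (LXR DKO) and 450.5 to 649 (transgenic), and neutrophil sums, at 31.7 to 48.7 and 7.84 to 15.6. An effect of the transgene on the members and one of RNA of these other cells cannot be told apart. None of the 32 members passed in limma, against a background of 0.0548% of genes higher and 0.0609% lower. With voom on the reads worked back, 0 passed as well. In limma 2 members had an unadjusted p under 0.05 (Dgat1 and Lpcat2, 6.25% of members against 8.10% of all genes). The median change of members was -0.07, beside 0.013 for all genes. All 3 transgenic libraries lay below all 3 LXR DKO libraries for 5 members (Scd1, Dgat1, Lpcat3, Elovl6 and Lpcat1; background 7.05%) and above them for 4 (Thrsp, Lpcat2, Agpat1 and Fads2; background 11.3%). Scd1 differed by -0.43 ± 0.21 (adjusted p = 0.665) and Lpcat3 by -0.23 ± 0.13 (adjusted p = 0.706), both in the direction of WT. Both lay above WT in all LXR DKO libraries, the baseline here, so that direction is not independent of the comparison with WT. Mean RPKM in WT, LXR DKO and transgenic libraries was 17.8, 15.3 and 12.6 for Elovl6 and 8.48, 6.83 and 4.64 for Lpcat1, away from WT. Dgat1 had means of 21.5, 26.1 and 19.5. For the members that fell in LXR DKO, the 95% intervals before adjustment were -0.27 to 0.38 for Acsl3 and -0.29 to 0.50 for Scd2, around differences of 0.05 and 0.10. For Srebf1 it was -0.35 to 0.10 and for Fasn -0.49 to 0.49.

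Against WT, the transgenic libraries had 2 members higher, Elovl7 and Fads3 (background 5.15%), and 3 lower, Acsl3, Scd2 and Srebf1 (background 6.72%), with 27 not passing. This comparison shares its WT libraries with the one above, so the shared names are not independent. Acsl3 was lower by 0.80 ± 0.14 (limma adjusted p = 0.0123), which held under all 18 alternatives (up to 0.0467). Scd2 changed by -0.76 ± 0.17 (adjusted p = 0.0288) and Srebf1 by -0.48 ± 0.10 (adjusted p = 0.0208). Each lost its call without WT 1, WT 2 or any transgenic library, to 0.0971 for Scd2 and 0.0714 for Srebf1, and Scd2 also without both WT 1 and LXR DKO 1 (0.0945). Elovl7 changed by 0.51 ± 0.12 (adjusted p = 0.0268) and Fads3 by 0.43 ± 0.11 (adjusted p = 0.0393). Elovl7 lost its call without WT 2 or any transgenic library (up to 0.0918), and Fads3 when WT 1, WT 2, LXR DKO 3 or 1 of the transgenic libraries was left out (up to 0.115). Fads1 (0.27 ± 0.10, adjusted p = 0.113) and Lpcat3 (0.31 ± 0.13, adjusted p = 0.141) did not pass. All transgenic libraries were above all WT libraries for 7 members (background 16.8%) and below them for 3 (background 18.9%), and the median of the 32 members was 0.13, beside 0.015 for all genes.

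Some members had their highest values in the libraries with the most RNA of other cells. Thrsp, the lipogenic Spot 14 gene, gave 1.42, 1.75 and 31.6 RPKM (WT), 5.70, 8.04 and 4.37 (LXR DKO) and 12.2, 23.3 and 29.2 (transgenic). Its 4 highest libraries were the 4 with the highest oviduct epithelium sums, WT 3 and the transgenic libraries, and the part of that RNA in the result was not tested (transgenic minus WT 1.83 ± 0.87, limma adjusted p = 0.194). Its LXR DKO mean was 0.521 times that of WT, while the log2 estimate was 0.19, as WT 3 was the 1 high WT library. Fads2 had the same 4 highest libraries, at 22.3 RPKM (WT 3) and 20.7, 20.3 and 22.3 (transgenic), beside 14.9 to 19.5 in the others. The part of oviduct RNA in Fads2 was not tested. Pnpla3, an acyltransferase and lipase gene, reached 6.03 RPKM (WT 1) and 5.13 (LXR DKO 1) in the libraries with the highest oocyte sums, and 0.0349 to 0.831 in the others, where it had as few as 2 reads. Lpcat1 measured 12.7 and 9.62 RPKM in the same pair of libraries and 4.31 to 7.81 in the others. Outside that pair, Lpcat1 was highest in WT 2, with an oocyte sum of 21.2 RPKM, and lowest in transgenic 2, with an oocyte sum of 77.7. These pairings were chosen after the values were seen, and the part of oocyte RNA in them was not tested.

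**Figure D4:**
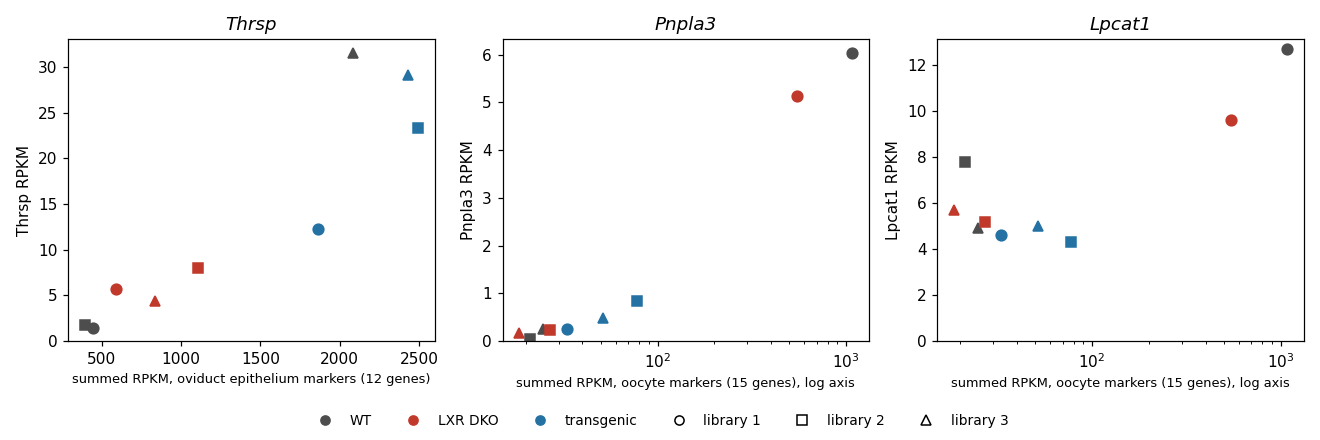
RPKM of Thrsp, Pnpla3 and Lpcat1 (vertical axes from 0) against the summed RPKM of marker lists (linear axis for 12 oviduct epithelium genes, log axis for 15 oocyte genes), 1 point per library, coloured by genotype. Pnpla3 is at 6.03 and 5.13 RPKM in WT 1 and LXR DKO 1, and at most 0.831 elsewhere.

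WT 3, the library with the most erythroid RNA and an oviduct sum like that of the transgenic libraries, was the lowest of the 9 libraries for 16 of the 34 members, while it was lowest for 22.4% of all genes tested. Those members included Scd1, Fasn, Acaca, Acly, Me1, Gpam, Acsl4 and Lpcat3. Without WT 3, Fads3, Lpcat3 and Thrsp passed as higher and Acsl3, Scd2, Srebf1 and Elovl6 as lower in LXR DKO, so that Elovl7 and Fads1 left the list, and Scd2 changed by -1.04 in place of -0.86. In transgenic against WT, leaving out WT 3 added Fads2 and Thrsp as higher and Elovl6 and Lpcat1 as lower. Without LXR DKO 3, no member passed as higher in LXR DKO and Acsl3 and Scd2 still passed as lower.

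Another 56 genes of the same pathways that are no members were counted for context, 48 of them tested. In LXR DKO 4 of the 48 rose (3.47% of all genes tested) and 1 fell (7.12% of all genes). In transgenic against LXR DKO 0 passed with limma or voom, and 7 of the 48 had an unadjusted p under 0.05 in limma, beside 8.10% of all genes. In transgenic against WT 1 was higher (5.15% of all genes) and 1 lower (6.72% of all genes). Agpat4, a lysophosphatidate acyltransferase gene, rose in LXR DKO from 19.4 ± 3.03 to 34.6 ± 3.32 RPKM (SD, n = 3, 0.81 ± 0.12, limma adjusted p = 0.00569). It measured 20.8, 22.6 and 20.2 RPKM in transgenic 1 to 3, inside or near the WT range of 16.0 to 21.6 and below every LXR DKO library, although the difference from LXR DKO did not pass (-0.68 ± 0.12, adjusted p = 0.115). Chka, the choline kinase gene at the entry to phosphatidylcholine synthesis, gave 5.02 to 6.78 RPKM (WT), 9.19 to 10.7 (LXR DKO) and 7.78 to 8.54 (transgenic), and was higher than WT in LXR DKO (0.67 ± 0.11, adjusted p = 0.00784) and transgenic libraries (0.42 ± 0.11, adjusted p = 0.0439). The long-chain acyl-CoA synthetase gene Acsl1 rose by 0.51 ± 0.10 and the elongation-cycle reductase gene Hsd17b12 by 0.55 ± 0.12 in LXR DKO (limma adjusted p = 0.0154 and 0.0257). Crls1, the cardiolipin synthase gene, fell by 0.40 ± 0.10 in LXR DKO and was lower by 0.42 ± 0.10 in transgenic libraries (adjusted p = 0.0382 and 0.034). The calls of Agpat4 and Chka in LXR DKO held under all 18 alternatives, and the others did not. Chka in transgenic against WT lost its call in 10 of 18 (adjusted p up to 0.127), among them the replicate block (adjusted p = 0.0584) and the omission of WT 2, WT 3, LXR DKO 2, LXR DKO 3 or each transgenic library. Crls1 lost its LXR DKO call in 9 of 18 (up to 0.131), among them the omission of each library but WT 3 and LXR DKO 1, and its transgenic call in 6 of 18 (up to 0.105), among them the omission of WT 1, WT 2 or each transgenic library. Hsd17b12 lost its call in 6 of 18 (up to 0.102), among them the omission of WT 1, LXR DKO 2, LXR DKO 3 or both WT 1 and LXR DKO 1, and Acsl1 in 3 of 17 (up to 0.0636), among them the omission of LXR DKO 2 or LXR DKO 3. None of the 6 genes of SREBP processing passed, among them Insig2, the endoplasmic reticulum anchor of SREBPs (transgenic minus WT 0.35 ± 0.10, adjusted p = 0.0515). Mboat1, a lysophospholipid acyltransferase gene, gave 0.385, 0.620 and 2.27 RPKM (WT) and 2.52 to 3.50 (transgenic) (1.03 ± 0.30, adjusted p = 0.0552), and so was high in the 4 libraries with the highest oviduct sums.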

How the data were processed

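The authors deposited 1 matrix of RPKM values, 1 column per library, for 9 libraries of corona radiata RNA, and columns were matched to samples by name (0 columns not used). The transgenic column names differ from the descriptions in 1 letter. Tools listed in the submitters' processing notes, with no role, were HISAT2 2.1.0 (an aligner), HTSeq 0.5.4p5 (a read counter), cutadapt and DESeq2 1.2.8, and the build was mm10. No source used here gives the annotation, strand setting or treatment of multi-mapping reads. With exon lengths of GENCODE M21, 98.1% of genes above 0 came out as whole reads (tolerance 0.02 reads), including 30 of the 34 members. Scd1, Fads1, Fads2 and Fads3 did not, so voom used non-whole reads for them.

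Here, log2(RPKM + 1) was tested with limma 3.58.1 in R 4.3.3 (genotype as the only factor, all 9 libraries, moderated variances with a trend, Benjamini-Hochberg over 16422 genes). The fit was tested on simulated data. Alternatives covered pseudocount, filter, scaling, samples, block and weights, with voom and the omission of WT 1 and LXR DKO 1 added after seeing the data. Members, lists and tests were chosen with earlier results of these data known. Per-library values are given for members past the threshold and for 11 genes of the LXR, SREBP1c and ChREBP axis and the committed steps. Other pathway genes are named by lowest adjusted p, up to 8. Most same-numbered libraries did not deviate together (3 of 9 pairs with a correlation over 0.1, range -0.293 to 0.672), so numbers were not treated as pairs. The highest correlation was that of WT 1 and LXR DKO 1, the libraries with the highest oocyte sums.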

Additional observations from a re-analysis of the deposited data

How the results depend on the processing

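Counts of members past the threshold were recomputed under 18 alternatives. Of 108 such counts, 78 stayed within 1.5 times the value reported, and none of the 18 gene calls named above changed direction. The 78 include all counts of transgenic against LXR DKO, which were 0 as reported and under every alternative. All 30 counts that moved lay in the comparisons with WT. In LXR DKO against WT, the count of members higher was 0 with no filter, 0 with only the 2 genotypes compared, 2 with the replicate block and 1 without WT 1 and LXR DKO 1, and 0 to 3 when single libraries were left out. The count lower was 1 with no filter and 1 with only the 2 genotypes compared, and 1 to 4 when single libraries were left out. In transgenic against WT, the count higher was 0 with no filter and 4 with sample quality weights, and 0 to 4 without single libraries. The count lower was 5 with sample quality weights and 1 to 5 without single libraries. The replicate block lost the calls of Fads1 (adjusted p = 0.0791) and Lpcat3 (0.0641) in LXR DKO and of Scd2 (0.0534) and Chka (0.0584) in transgenic against WT, and no other call named above. A test without a filter adjusts over 37863 genes. The cause of the other shifts was not tested.

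Signs turned for values that were never past the threshold. When single libraries were left out, Gpam ranged from -0.016 to 0.37 and Dgat2 from -0.40 to 0.051 in LXR DKO minus WT. In transgenic minus LXR DKO, Acly ranged from -0.16 to 0.021, Fasn from -0.13 to 0.10, Scd2 from -0.0098 to 0.21 and Gpam from -0.25 to 0.048. In transgenic minus WT, Gpam ranged from -0.15 to 0.24 and was -0.057 with sample quality weights, and Dgat2 from -0.049 to 0.41. The effect of depth on the calls was not tested. Leaving aside Scd1, Fads1, Fads2 and Fads3, whose reads could not be worked back, the fewest reads of a tested member were 137 (Thrsp in WT 1).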
